A study of Rattus norvegicus with 9 samples.

Results

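Of 8 genes chosen for their part in sensing osmotic pressure, holding cell volume and moving chloride, 7 could be followed through water deprivation in the supraoptic nucleus of the rat. They were Trpv1, Slc12a2, Slc12a5, Slc5a3, Slc6a6, Akr1b1 and Sgk1, and every probe set annotated to exactly 1 of these symbols was taken: 11 of the 8799 on the array. Slc12a2 has 4 of them and Akr1b1 has 2. The eighth gene, Slc6a12, which encodes a betaine and GABA transporter, was not analysed here, since no probe set carried its symbol alone in the annotation used. The supraoptic nucleus is the hypothalamic cell group whose large (magnocellular) neurons release vasopressin and oxytocin. Male Sprague Dawley rats, 10 to 12 weeks old, gave the total RNA of 3 groups of 3 arrays: control animals, animals dehydrated for 1 day and animals dehydrated for 3 days. Arrays carry the letter a, b or c in each group. Since nothing says whether these are separate animals or pools, the p-values measure the spread between arrays, which may be technical.

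Magnocellular neurons respond to the osmolality of their surroundings: they shrink when it is raised, and mechanically sensitive cation channels of the TRPV family then depolarise them. Cells under lasting hypertonicity regain volume by taking up or making small organic solutes (taurine, myo-inositol, betaine and sorbitol), under the transcription factor NFAT5 (TonEBP), which binds tonicity-responsive elements. The cation-chloride cotransporters set intracellular chloride, and with it whether GABA inhibits or excites a neuron.

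Promoter sequences from RefSeq (build GRCr8, from 250 bases before to 50 after each gene start) were searched because the osmolyte genes and Sgk1 are known targets of tonicity and corticosteroid signals. Of the 8 genes, 7 matched by symbol, with 3 starts for Sgk1; Akr1b1 had no entry. The motifs, on both strands, were TGGAAA, the core of the tonicity-responsive element, AGAACA, a half-site of the glucocorticoid response element, and TGACGTCA, the cyclic AMP response element. TGGAAA lies in the Slc6a6 promoter, on the opposite strand, 151 to 156 bases before the start (window chr4:125752321-125752376, plus strand). It also lies at 2 of the Sgk1 starts: 42 to 47 bases after the start, on the opposite strand, for 1 of them, which is not printed, and 232 to 237 bases before the start for the other (window chr1:24805777-24805820, minus strand). AGAACA lies across the Trpv1 start (window chr10:58349907-58349962, plus strand). The matches, read 5′ to 3′ on the strand of the gene with the motif in capitals, are these.
Slc6a6: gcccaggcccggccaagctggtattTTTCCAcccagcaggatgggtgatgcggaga
Sgk1: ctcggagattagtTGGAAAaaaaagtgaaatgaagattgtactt
Trpv1: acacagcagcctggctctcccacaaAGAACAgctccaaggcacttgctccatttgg

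In the same table TGGAAA is found in 22.7 percent of 33469 promoters, AGAACA in 20.7 percent and TGACGTCA in 1.83 percent, so single matches are common for the first and second. No other match to these letters was found in the windows of the 7 genes. Neither Slc6a6 nor Sgk1, the genes with TGGAAA, had a call in these arrays. None of the 5247 probe sets tested had a call either, so the lack of a call cannot be set against the motif. A match in letters is not a binding site.

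Dehydration brought no call among these genes. By limma, 0 of the 10 probe sets tested passed an adjusted p of 0.05 in any comparison or in the F test over the 3 groups, as did 0 percent of all 5247 tested. The probe sets farthest from control were the Akr1b1 probe set M60322_g_at at 3 days, at -1.64 ± 0.60 (log2 fold change ± SE), and Trpv1, at 1.03 ± 0.61 at 1 day and 1.02 ± 0.61 at 3 days. Values are MAS5 signals, which summarise the probes of a probe set on a linear scale, and fold changes are on the log2(signal + 4) scale, which understates the change of dim genes. The comparisons of each time with control share the control arrays.

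Markers of the labelled tissue were present. Avp read 1622 to 5678 and Oxt 208.3 to 4356; Oxt was low on control c and 1-day c (208.3 and 272), the arrays with the smallest maximum signals (2105 and 2239, against 3867 to 6295 on the others). Mbp of oligodendrocytes read 997.7 to 3840 and Ttr of the choroid plexus 8.4 to 119.8; no probe set of Gfap, Cldn5 or Cd68 was analysed here. Summed signals of the 18 magnocellular markers were 14380 to 16908 at 3 days and 8684 to 14520 at 1 day, against 8312 to 11691 in control. Of these markers 16 were higher and 2 lower at 1 day than in control, and 11 and 7 at 3 days. Avp alone read 3871 to 5678 at 3 days, against 1765 to 2868 in control. Among the 88 probe sets of highest mean, 80 were higher at 3 days than in control. The 14 astrocyte markers summed to 15645 to 21012 at 3 days and 10710 to 17184 at 1 day, against 10601 to 16265 in control. Of these, 8 were higher and 6 lower at 1 day than in control, and 10 and 4 at 3 days. The 13 endothelial, mural and blood markers summed to 1453 to 1728 at 3 days and 2285 to 3095 at 1 day, against 2108 to 2217 in control. Of the 9 of them tested, 4 were higher and 5 lower at 3 days than in control (median log2 fold change -0.09), and 6 and 3 at 1 day. The sum thus does not stand for the list as a whole. Sums for 11 general neuronal markers (9274 to 10344 at 3 days, 7924 to 10426 at 1 day, 8003 to 10758 in control) and 8 oligodendrocyte markers (4008 to 8636, 4423 to 8806 and 5480 to 8414 in that order) overlapped in all groups. So did those of 9 microglial markers (487.4 to 517.6, 439.2 to 634.2 and 347.3 to 487.8) and 6 choroid plexus and ependyma markers (289.4 to 341.6, 258.1 to 316.5 and 296.8 to 367). No marker of these lists was at 0 on any array. The part of these differences in the values of the 7 genes was not tested, and in tissue RNA fewer cells of a type and less RNA per cell cannot be told apart.

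**Figure D1:**
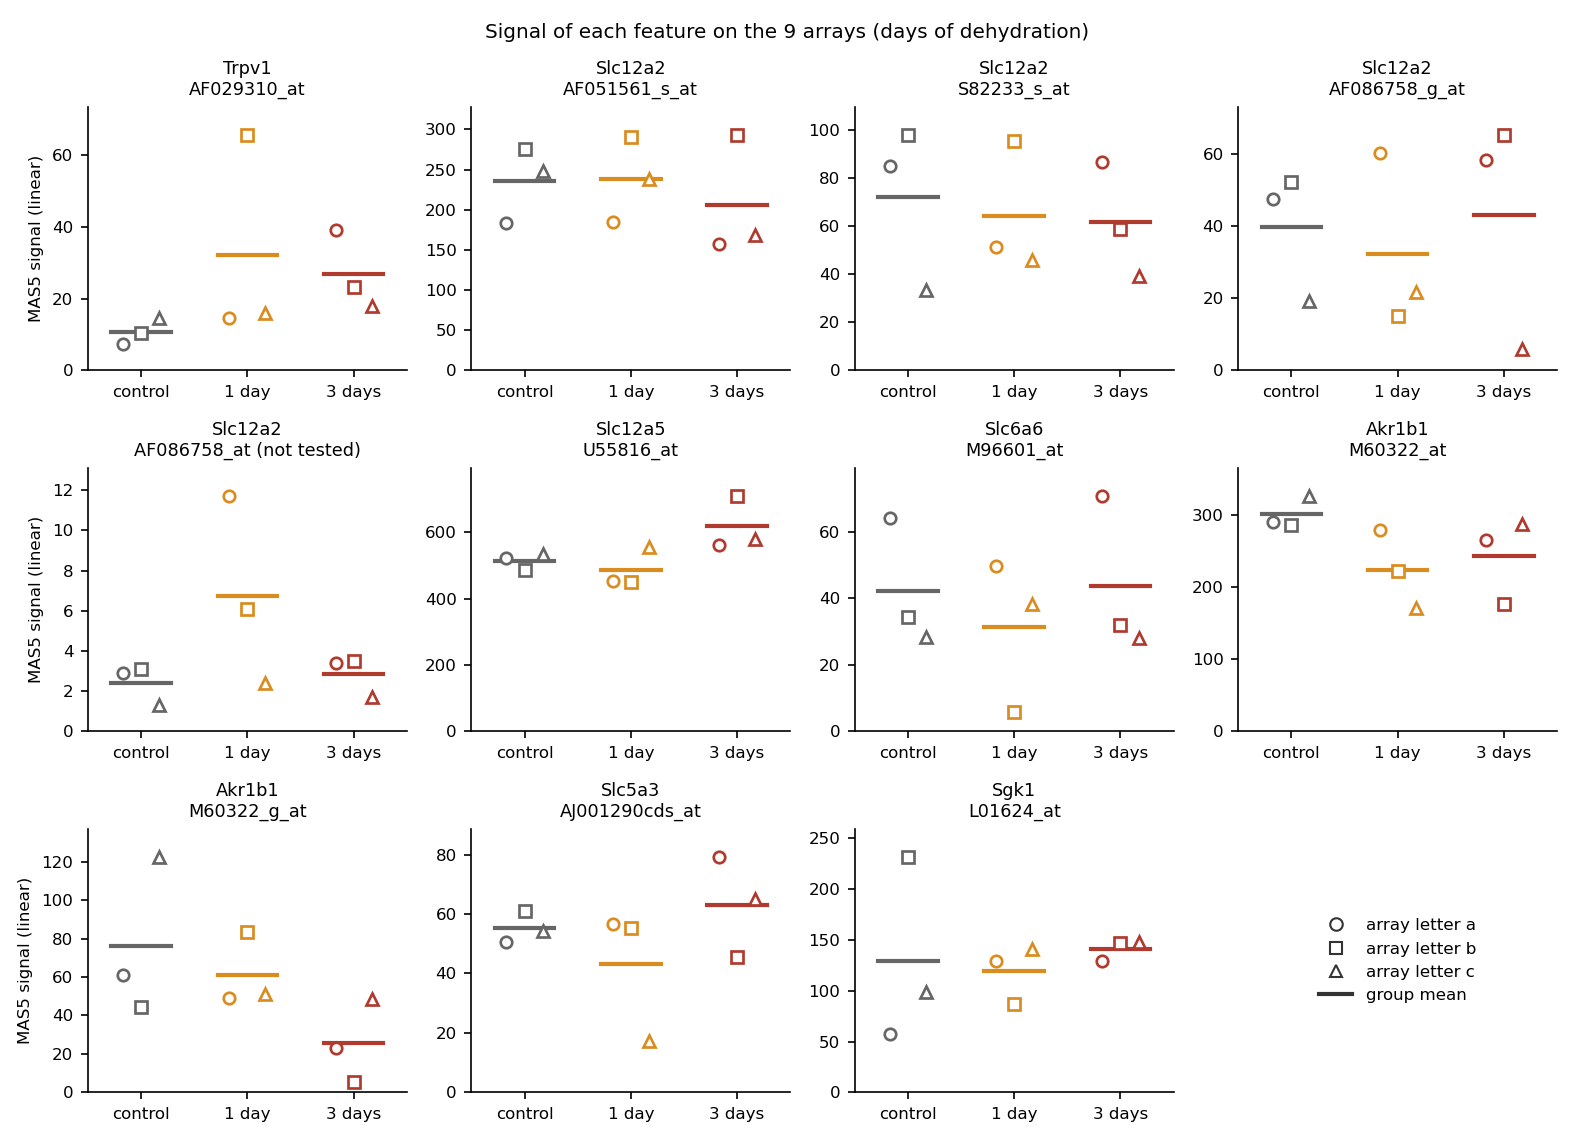
MAS5 signal (linear axis from 0) of the 11 probe sets on the 9 arrays, by days of dehydration; symbols mark the array letter and bars the mean of 3 arrays. The 3-day arrays of Slc12a5 (562.6 to 708.4) do not overlap the controls (486.9 to 535), and those of Sgk1 (128.8 to 147.9) lie inside the control range (57.1 to 231.1).

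Trpv1, the gene of a vanilloid-family cation channel needed for the osmotic response of these neurons, was dim on most arrays. It was above the median signal of the array only on 1-day array b (median 40.3) and 3-day array a (median 35.7). Probe set AF029310_at read 7.5, 10.3 and 14.7 on the control arrays a, b and c, 14.6, 65.6 and 16.1 at 1 day, and 39.2, 23.2 and 17.9 at 3 days. The 3-day and control arrays did not overlap, and 5 of the 6 dehydrated arrays were above the highest control, with the 1-day array a just inside the control range. The group means were 26.8 ± 11.1 at 3 days and 10.8 ± 3.6 in control (SD, n = 3), which is 2.03-fold on the log2(signal + 4) scale with a 95% confidence interval of 0.80 to 5.13 (limma adjusted p = 1.00). At 1 day the mean of 32.1 ± 29.0 rests on array b: the log2 fold change was 0.41 without it, against 1.03 with it. The difference between 3 days and 1 day was -0.01 ± 0.61. The mean over the 9 arrays was 23.2, against a minimum of 23.1 for testing, and 17.9 without the 1-day array b. Trpv1 was thus tested only because its dehydrated arrays were high, so these values are a description, and counts over the tested probe sets are given below without it too.

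Slc12a2 encodes NKCC1, the cotransporter that carries sodium, potassium and chloride into the cell and is also a volume regulator. AF051561_s_at, whose probes several transcripts can share, read 183, 276.1 and 248.6 in control, 185.2, 290.2 and 237.6 at 1 day, and 157.3, 292.7 and 168.6 at 3 days. The arrays followed their letter more than their group: array a was the lowest and array b the highest in all 3 groups. At 1 day the log2 fold change was 0.01 ± 0.31, with an interval from -0.67 to 0.69, and at 3 days it was -0.23 ± 0.31, from -0.91 to 0.45 (limma adjusted p = 1.00 for both). The direction at 1 day is not settled, since median centring gave -0.03. Changes over about 1.61-fold at 1 day lie outside the interval on the higher side, and losses below 0.63-fold on the lower side. These bounds are from the fit without the letter. With the letter as a block the SE at 1 day was 0.19 and the log2 interval ran from -0.42 to 0.43.

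The other Slc12a2 probe sets did not track AF051561_s_at. Over the 9 arrays it had a Pearson r of 0.12 with S82233_s_at, 0.02 with AF086758_g_at and -0.03 with AF086758_at. S82233_s_at ranged from 33.6 to 97.7 over the arrays and stood at -0.11 ± 0.46 at 1 day and -0.16 ± 0.46 at 3 days. AF086758_g_at ranged from 5.9 to 65.2 and stood at -0.36 ± 0.76 and -0.22 ± 0.76. AF086758_at, at 1.3 to 11.7, lay under the minimum signal for testing. Its 1-day signals of 11.7, 6.1 and 2.4 compare with 2.9, 3.1 and 1.3 in control, a log2 fold change of 0.66 ± 0.38 when tested without the minimum (limma adjusted p = 1.00). Thus 2 of the 4 probe sets were on the higher side at 1 day and 2 on the lower, and at 3 days 1 and 3.

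Slc12a5 encodes KCC2, the neuronal potassium-chloride cotransporter that carries chloride out, and its standard error of 0.22 was the smallest of the 10. U55816_at read 521, 486.9 and 535 in control, 454.5, 450.2 and 555.6 at 1 day, and 562.6, 708.4 and 580.9 at 3 days. The lowest 3-day array, at 562.6, was above the highest 1-day array, 555.6, and the highest control array, 535. The mean signal was 617.3 ± 79.4 at 3 days and 514.3 ± 24.7 in control (SD, n = 3). The log2 fold change was 0.26 ± 0.22, or 1.19-fold with an interval of 0.86 to 1.66 (limma adjusted p = 1.00). Between arrays of the same letter it was 0.11 (a), 0.54 (b) and 0.12 (c). At 1 day the difference was -0.08 ± 0.22, and between 3 days and 1 day it was 0.34 ± 0.22, with all letter pairs higher. Over the 9 arrays Slc12a5 and AF051561_s_at of Slc12a2, the outward and the inward carrier, had a Pearson r of 0.03.

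Slc5a3 encodes SMIT1, the sodium-dependent importer of myo-inositol. AJ001290cds_at read 50.5, 61.1 and 54.2 in control, 56.5, 55.4 and 17.3 at 1 day, and 79.1, 45.4 and 65 at 3 days. Only the 1-day array c stood well apart from the controls at 1 day. The log2 fold change there was -0.48 ± 0.43 with that array and 0.02 without it. At 3 days it was 0.15 ± 0.43, and the signals averaged 63.2 ± 16.9 at 3 days and 55.3 ± 5.4 in control (SD, n = 3). The interval at 3 days ran from 0.58-fold to 2.14-fold.

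Slc6a6 encodes TauT, the sodium- and chloride-dependent importer of taurine, an amino acid that astrocytes of this nucleus release under hypotonic conditions. M96601_at read 64.1, 34.4 and 28.3 in control, 49.6, 5.9 and 38.3 at 1 day, and 70.6, 31.9 and 28.1 at 3 days. The 3-day arrays matched the control arrays of their own letter within 0.13 on the log2 scale. The fold change was 0.01 ± 0.64 at 3 days and -0.64 ± 0.64 at 1 day, and the 1-day value became 0.12 without the 1-day array b, where the signal was 5.9. The interval at 3 days, from 0.38-fold to 2.68-fold, is too wide to tell a large change from none.

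Akr1b1 encodes aldose reductase, which makes the osmolyte sorbitol from glucose. Probe set M60322_at read 289.8, 285.4 and 325.5 in control, 278.5, 222.4 and 170.5 at 1 day, and 264.4, 176.1 and 287.1 at 3 days. The 1-day arrays lay below all control arrays, as did 5 of the 6 dehydrated arrays. At 1 day the mean was 223.8 ± 54.0, against 300.2 ± 22.0 in control (SD, n = 3), a log2 fold change of -0.44 ± 0.27 (interval -1.05 to 0.16), and at 3 days it was -0.33 ± 0.27 (limma adjusted p = 1.00 for both). All 3 letter pairs were on the lower side at both times.

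The other Akr1b1 probe set, M60322_g_at, read 60.9, 44.6 and 122.3 in control, 49.1, 83.3 and 51.1 at 1 day, and 22.9, 5.3 and 48.8 at 3 days. The 3-day arrays lay below all 1-day arrays, while the 3-day array c overlapped the control range. At 3 days the mean was 25.7 ± 21.9, against 75.9 ± 41.0 in control (SD, n = 3), or 0.32-fold with an interval of 0.13 to 0.80. This was the only one of the 10 with an unadjusted p under 0.05 in that comparison (0.020; limma adjusted p = 1.00; 0.87 with the letter as a block). Against 1 day the log2 fold change was -1.42 ± 0.60 (unadjusted p = 0.037; limma adjusted p = 1.00). Its letter pairs at 3 days were -1.27, -2.39 and -1.26. Without control c and 1-day c the 3-day value was -1.25. Much of the size rests on the 3-day array b, where the signal was 5.3. Without that array the log2 fold change was -0.97 against control and -0.75 against 1 day. The unadjusted p at 3 days against control ranged from 0.0034 to 0.10 over the alternatives, and the fold change from -2.22 to -0.97. Both probe sets carry the same sequence record in their names and had a Pearson r of 0.54 over the arrays, but they differ in size: at 3 days M60322_at stood at -0.33 and M60322_g_at at -1.64. Between 3 days and 1 day they differ in sign too, at 0.11 ± 0.27 and -1.42 ± 0.60.

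Sgk1 encodes the serum- and glucocorticoid-regulated kinase, which is induced by corticosteroids and by cell shrinkage and raises the activity of ion channels and carriers. L01624_at read 57.1, 231.1 and 98.7 in control, 129.1, 86.6 and 141.3 at 1 day, and 128.8, 146.8 and 147.9 at 3 days. None of the 6 dehydrated arrays lay outside the control range. The mean was 141.2 ± 10.7 at 3 days, 119.0 ± 28.7 at 1 day and 129.0 ± 90.9 in control (SD, n = 3), and the control arrays spread most. The log2 fold change was 0.08 ± 0.43 at 1 day and 0.35 ± 0.43 at 3 days (limma adjusted p = 1.00 for both). At 3 days it was 0.87 without control array b (unadjusted p = 0.030) and -0.10 without control array a, so that its direction rests on single control arrays.

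**Figure D2:**
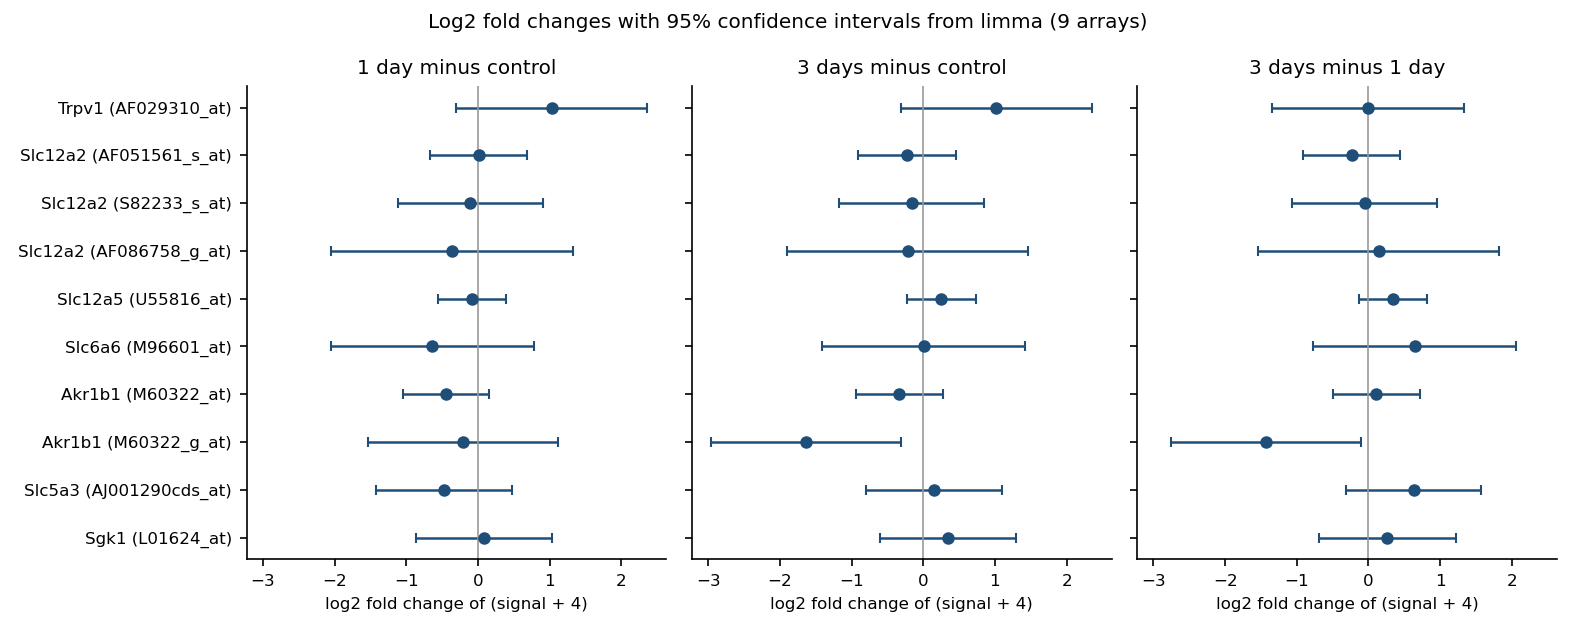
Log2 fold change (x axis, of signal + 4) of the 10 tested probe sets in 3 comparisons, with 95% confidence intervals from the limma fit to 9 arrays. The intervals of M60322_g_at (Akr1b1) end below 0 at 3 days against control (-2.96 to -0.31) and against 1 day (-2.75 to -0.10), and all others include 0.

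As a set, the probe sets did not move one way. At 1 day 3 of the 10 tested were higher than control and 7 lower, with a median log2 fold change of -0.16, against 0.02 over all 5247. At 3 days 5 were higher and 5 lower (median -0.07, against 0.02). Between 3 days and 1 day 6 were higher and 4 lower (median 0.13, against 0.00). Without Trpv1, an alternative chosen after seeing the data, 2 of 9 were higher at 1 day (median -0.21), 4 at 3 days (median -0.16) and 6 between the times (median 0.14). The median size of the log2 fold change, ignoring sign, was 0.29 at 1 day and 0.24 at 3 days, against 0.22 and 0.23 over all tested probe sets.

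Counts of groups that do not overlap were read against those of all 5247. At 1 day 0 of the 10 lay wholly above control (2.63 percent of all) and 1 wholly below, M60322_at (1.58 percent), and 0 had an unadjusted p under 0.05 (1.01 percent). At 3 days 2 lay wholly above control, Trpv1 and Slc12a5 (4.73 percent), or 1 of 9 without Trpv1, 0 wholly below (3.01 percent) and 1 had an unadjusted p under 0.05 (1.72 percent). At 3 days against 1 day 1 lay wholly above, Slc12a5 (3.05 percent), 1 wholly below, M60322_g_at (2.67 percent), and 1 had an unadjusted p under 0.05 (1.83 percent). With 10 probe sets of 7 genes, counts of 0, 1 or 2 are too small to set apart from those shares.

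Arrays of the same letter were also compared. All 3 pairs were higher at 1 day for 1 of the 10 (Trpv1; 16.8 percent of all) and lower for 1 (M60322_at; 9.28 percent). At 3 days all were higher for 2 (Trpv1 and Slc12a5; 16.9 percent) and lower for 2 (both Akr1b1 probe sets; 13.2 percent). Without Trpv1 the counts of higher were 0 at 1 day and 1 at 3 days. Against 1 day, all 3 pairs at 3 days were higher for 1 (Slc12a5; 12.5 percent) and lower for 1 (M60322_g_at; 12.9 percent).

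**Figure D3:**
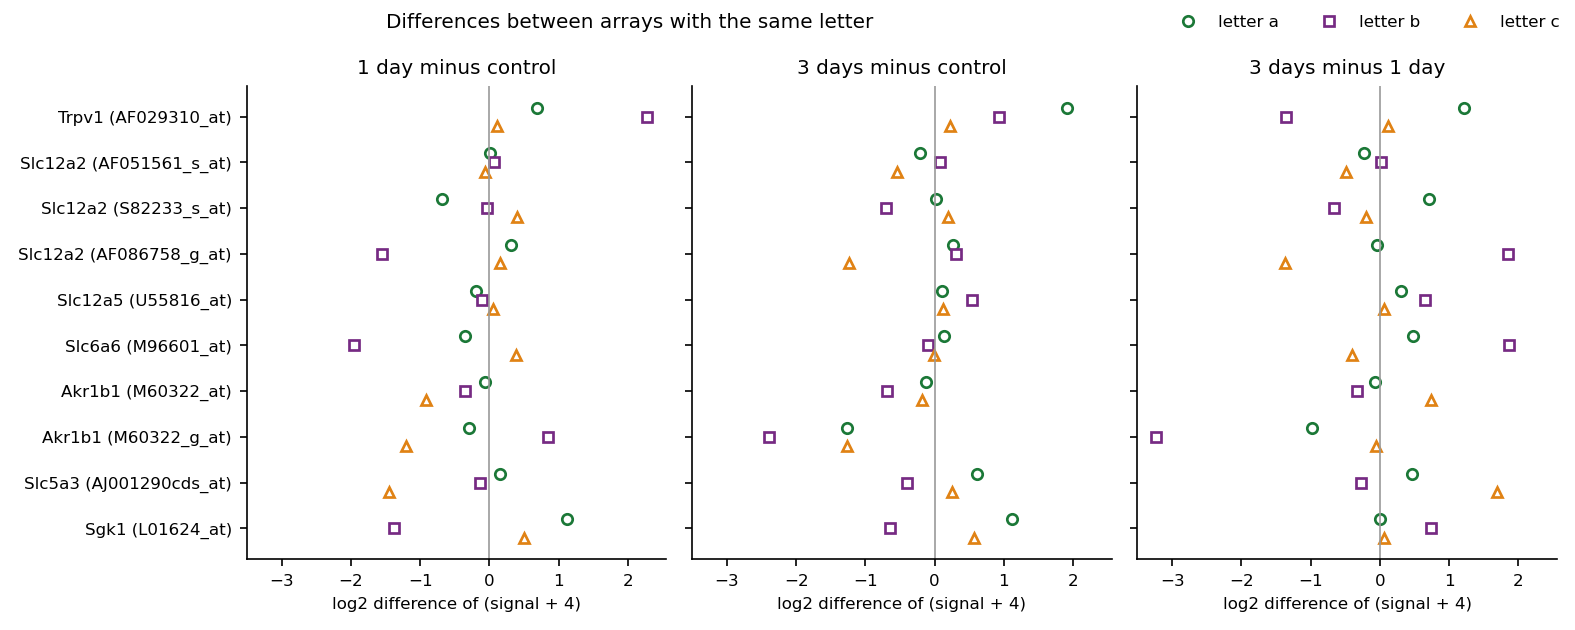
Log2 difference (x axis, of signal + 4) between arrays with the same letter for the 10 tested probe sets; each symbol is 1 pair of arrays. Both Akr1b1 probe sets lie below 0 in all 3 pairs at 3 days against control, and Sgk1 lies on both sides of 0, with -0.64 for b and 0.56 for c.

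Wider lists of related genes, chosen with earlier results of these data known, had 0 calls in either direction in any comparison. The list of cation-chloride cotransport and volume-regulating kinases is wider than its name. It also holds genes of Slc4 carriers and of protein phosphatase 1, and Car2 and Ckb. Of its 17 tested genes, 7 were higher and 10 lower at 1 day (median -0.08), 8 and 9 at 3 days (median -0.02), and 6 and 11 between 3 days and 1 day (median -0.17). Within each comparison with control, the smallest unadjusted p in this list was that of Slc12a3, the thiazide-sensitive cotransporter, at 1 day (1.07 ± 0.58, and 0.60 without control b), and of Slc4a7, a sodium bicarbonate cotransporter, at 3 days (-0.59 ± 0.29). Slc4a7 had a mean signal of 50.8 ± 9.7 at 3 days and 77.8 ± 9.7 in control (SD, n = 3), with no overlap, and stood at -0.69 ± 0.29 against 1 day (unadjusted p = 0.036; limma adjusted p = 1.00). Ppp1cc, a catalytic subunit of protein phosphatase 1, stood at -0.74 ± 0.60 at 1 day, a value that was 0.14 without the 1-day array c. Ckb, the brain creatine kinase and one of the bright genes that stood higher at 3 days as a class, was at 0.59 ± 0.31, and at 0.38 without the 3-day array c. Slc12a3 stood at -0.99 ± 0.58 at 3 days against 1 day, and at -0.58 without the 3-day array b.

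Among 20 tested genes of organic osmolyte synthesis and transport, 11 were higher and 9 lower at 1 day (median 0.08), 14 and 6 at 3 days (median 0.23), and 13 and 7 between the times (median 0.10). Over all 5247 probe sets, 52.7, 51.7 and 50.1 percent were higher in these comparisons. This list too is wide: it also holds transporters of amino acids and transmitters, and Gad1. Its genes Slc1a2, Slc1a3 and Slc6a11 are also among the astrocyte markers, whose sum was higher at 3 days for most arrays. At 3 days the glutamate transporter gene Slc1a3 stood at 0.44 ± 0.25, with 797.9 ± 67.4 against 590.8 ± 106.0 in control, and the creatine transporter gene Slc6a8 at 0.39 ± 0.24, with 309.9 ± 20.3 against 237.2 ± 35.2 (SD, n = 3), both without overlap. At 1 day Gad1, which makes GABA, stood at -1.36 ± 0.87, a value that was -0.044 without the 1-day array c. The choline kinase gene Chkb stood at 0.27 ± 0.25, and at 0.097 without control b. Between 3 days and 1 day Akr1a1, the aldehyde reductase related to Akr1b1, stood at 0.41 ± 0.24 and Chdh, which makes betaine aldehyde from choline, at 1.29 ± 0.79. Chdh was at 0.44 without the 1-day array c, and Akr1a1 at 0.21 without the 3-day array c. The 0 calls in this list were accompanied by 0 unadjusted p-values under 0.05.

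Osmosensing, water channel and hypertonicity genes numbered 18 tested, with 11 higher and 7 lower at 1 day (median 0.07), 12 and 6 at 3 days (median 0.12) and 11 and 7 between the times (median 0.07). At 1 day Hspa1a, the inducible heat shock protein, stood at 0.86 ± 0.53 (0.51 without control b). Hspa1a was dim: mean signals were 16.7 in control and 31.4 on the 1-day arrays, against a minimum of 23.1 for testing. The control mean was under that minimum and the 1-day mean above it, so the values of Hspa1a are a description. The actinin gene Actn4 stood at -0.77 ± 0.59 at 1 day, and at 0.07 without the 1-day array b. At 3 days Aqp7, a water and glycerol channel gene, stood at 0.46 ± 0.35 and the calcium-sensitive kinase gene Ptk2b at 0.45 ± 0.44. Without control c they were at 0.26 and 0.086, and Ptk2b was at 0.89 without control a. Against 1 day Actn4 stood at 1.03 ± 0.59, and at 0.19 without the 1-day array b. Ptk2b stood at 0.47 ± 0.44, and at 0.24 without the 3-day array a.

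For the regulators and targets of Sgk1 and other corticosteroid-responsive genes, 26 tested, 13 were higher and 13 lower at 1 day (median 0.01), 14 and 12 at 3 days (median 0.06), and 16 and 10 between the times (median 0.14). Klf9, a transcription factor induced by glucocorticoids, had 170.7 ± 78.6 at 1 day and 305.9 ± 70.9 in control (SD, n = 3), with no overlap (-0.91 ± 0.36; unadjusted p = 0.030; limma adjusted p = 1.00), and stood at -0.54 without the 1-day array c. Nr3c2, the mineralocorticoid receptor gene, stood at -0.71 ± 0.60 at 1 day and at 1.08 ± 0.60 at 3 days against 1 day. Without the 1-day array b these values were -0.26 and 0.64. Nr3c2 was dim: its mean signal was under the minimum for testing in control (23.07, against 23.11) and on the 1-day arrays (15.9). It was tested only because its 3-day arrays averaged 32.2, so its values are a description. At 3 days Atp1b1, a subunit of the sodium pump that Sgk1 stimulates, stood at 0.78 ± 0.44, and Glul, the astrocyte glutamine synthetase, at 0.48 ± 0.27. Atp1b1 stood at 0.90 ± 0.44 against 1 day. In that comparison 84 of the 88 brightest probe sets, Atp1b1 among them, were on the higher side, with a median of 0.48. Bright probe sets as a class stood higher at 3 days than in control, with 80 of 88 of the top 1 percent on the higher side and a median of 0.49. After quantile normalization Glul was at -0.12, Ckb at 0.25 and Atp1b1 at 0.24 (0.49 against 1 day). Atp1b1 was at 0.37 without control c at 3 days, and at 0.43 against 1 day without the 1-day array c.

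**Figure D4:**
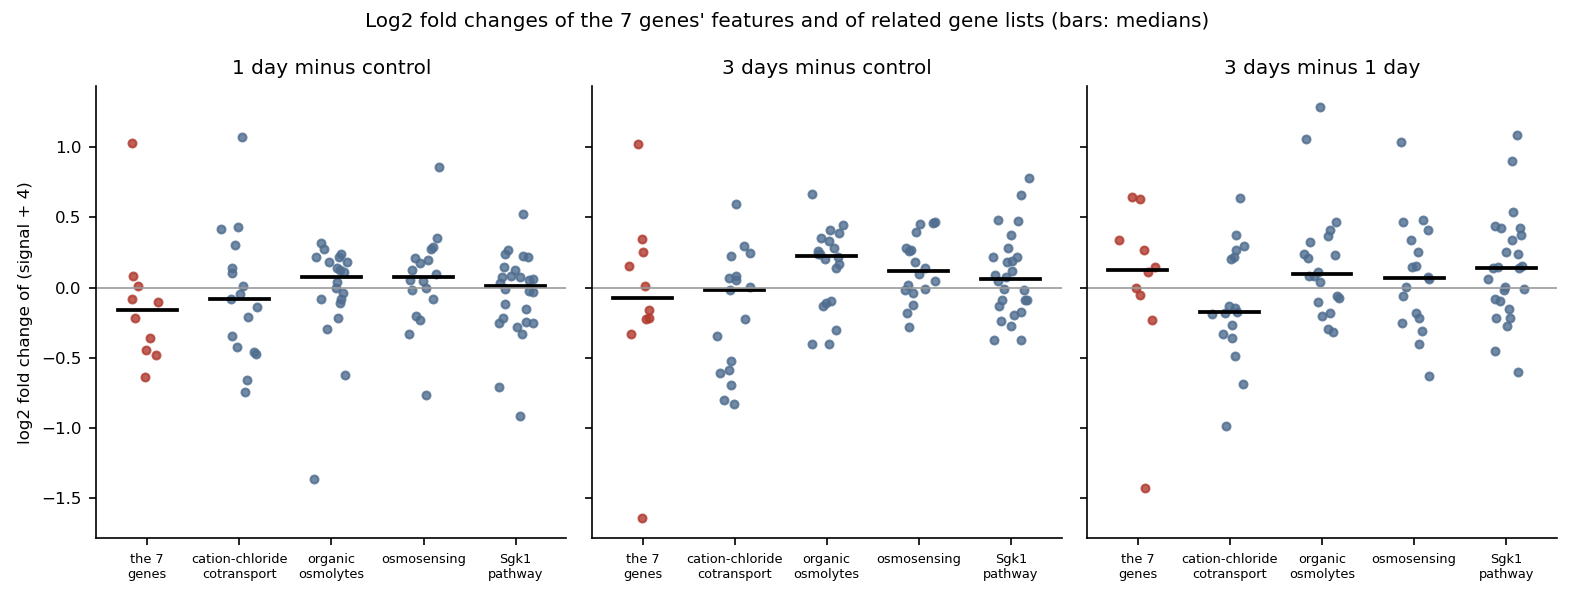
Log2 fold change (y axis, of signal + 4) of the 10 tested probe sets of the 7 genes and of the genes in 4 related lists, for 3 comparisons; each point is 1 probe set and black bars are medians. List medians lie between -0.17 and 0.23, and the widest point among the 7 genes is Akr1b1 M60322_g_at at -1.64.

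Among themselves, probe sets of different genes had Pearson r from -0.73 to 0.69 over the 9 arrays in 48 pairs, with a median of -0.05. The highest was between M60322_at of Akr1b1 and Slc5a3, and the lowest between Slc12a5 and M60322_g_at of Akr1b1. By rank (Spearman) these pairs had 0.32 and -0.57. The 1-day array c was the lowest of the 9 for both M60322_at (170.5) and Slc5a3 (17.3). These are descriptions over arrays that share letters and groups. The genes most alike in pattern were Sort1 (r = 0.91) and Tomm6 (0.90) for Trpv1, Rap1b (0.97) and Pkia (0.96) for Slc12a2, Cd1d1 (0.84) and Rpl5 (0.83) for Slc12a5, and Oas1a (0.98) and Akap12 (0.96) for Slc5a3. For Slc6a6 they were Lep (0.96) and Smo (0.93), for Akr1b1 Dpysl4 (0.96) and Rtcb (0.94), and for Sgk1 Gosr1 (0.93) and Pls3 (0.80). Among the 3189 genes compared, the best match of a gene had a median r of 0.95, with 0.88 and 0.98 as the 5th and 95th percentiles. The best match of Slc12a5 lay below the 5th percentile and that of Slc5a3 just above the 95th, and the others lay between. Slc5a3 and Slc6a6 each had 1 array far below the rest (17.3 on 1-day c and 5.9 on 1-day b). How far their matches rest on that array was not tested.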

How the data were processed

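The 9 arrays were used as values per probe set. The deposited intensities are linear signals. The submitters' processing notes name MAS5 without a version, and the trimmed mean of each array is 100.0, as read from the values. Probe sets were named from the platform annotation, in which 7006 of 8740 have 1 symbol; the member gene IDs all matched RefSeq GRCr8.

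Signals were turned into log2(signal + 4) and 5247 probe sets with a mean of at least 23.1, the 40th percentile, were tested. Limma 3.58.1 in R 4.3.3 fitted 3 group means to all 9 arrays (6 residual degrees of freedom), with an intensity trend, moderated two-sided tests and Benjamini-Hochberg adjustment over all tested probe sets. The fit was tested on simulated data. The rule named every member probe set, up to 2 genes per list and comparison by smallest p (1 probe set per gene, the one of highest mean), and the 2 genes most alike in pattern (Pearson r over the 9 arrays). Members, lists and tests were chosen with earlier results of these data known. The alternatives were other pseudocounts, filters, scalings, variance priors and array sets, and the letter as a block. Figures used Python 3.11.15 and matplotlib 3.10.9.

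The letters a, b and c of the titles pair the arrays: over the tested probe sets, deviations from the group means correlated in all 9 pairs of the same letter (r from 0.17 to 0.47), against -0.33 to 0.12 for other letters. The labels do not say what a letter stands for. Unless said otherwise, standard errors and intervals are from the fit without the letter. The median residual SD was 0.48 in that fit and 0.36 with the letter as a block. With 3 arrays per group the standard error of a log2 fold change had a median of 0.40, and the number of arrays limits the precision.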

Additional observations from a re-analysis of the deposited data

How the results depend on the processing

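Counts of calls, over all probe sets and over the 10 tested here, were 0 in each comparison and in the F test under every alternative run. With the replicate letter as a block (a paired fit), which changed no call, all counts were 0 and the smallest adjusted p of the 10 was 0.77. Unadjusted p-values under 0.05 numbered 136 at 1 day, 270 at 3 days and 275 between the times over all probe sets with the block, against 53, 90 and 96 without, and stayed at 0, 1 and 1 among the 10. Of 30 log2 fold changes of these probe sets, 13 kept their direction under up to 19 alternatives and 17 did not. Many of these alternatives cannot change a log2 fold change. They are the filters, the variance prior, the letter block, the fits to only the groups compared, and arrays left out of the group not compared. A kept direction is informative only for the other alternatives. Scaling and pseudocount turned only values near 0: Trpv1 between the times to 0.017 with a pseudocount of 1, Slc12a2 AF051561_s_at at 1 day to -0.030 with median centring, and Slc6a6 at 3 days to -0.031 with quantile normalization and -0.029 with median centring. Without control c and 1-day c together, M60322_g_at (Akr1b1) stood at 0.28, Slc5a3 at 0.00924 and Sgk1 at -0.13 at 1 day, Slc6a6 at -0.21 at 3 days, and AF086758_g_at (Slc12a2) at -0.00515 and M60322_at (Akr1b1) at -0.067 between the times.

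With 1 array left out in turn, ranges that cross 0 at 1 day were -0.16 to 0.17 (AF051561_s_at), -0.55 to 0.17 (S82233_s_at), -0.88 to 0.0012 (AF086758_g_at), -1.10 to 0.12 (Slc6a6), -0.51 to 0.18 (M60322_g_at), -0.73 to 0.020 (Slc5a3) and -0.37 to 0.61 (Sgk1). At 3 days they were -0.60 to 0.11 (S82233_s_at), -0.71 to 0.69 (AF086758_g_at), -0.37 to 0.33 (Slc6a6), -0.018 to 0.36 (Slc5a3) and -0.10 to 0.87 (Sgk1). Between the times they were -0.34 to 0.61 (Trpv1), -0.32 to 0.25 (S82233_s_at), -0.35 to 1.05 (AF086758_g_at), -0.11 to 1.11 (Slc6a6) and -0.067 to 0.32 (M60322_at). Among listed genes, recomputed after their values were seen, 4 of 450 values turned: Glul at 3 days to -0.12 with quantile normalization, Ppp1cc at 1 day to 0.12 without both c arrays, and, with 1 array left out, Actn4 (-1.19 to 0.073) and Ppp1cc (-1.19 to 0.14) at 1 day. The 450 values include the alternatives that cannot change a fold change. The cause of the turns was not tested.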
